A study of Mus musculus with 6 samples.

Results

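The cell cycle genes described here were 50 mouse genes taken by symbol from a fixed list, of 18227 genes in the deposited table. They comprise 20 genes of S phase, when DNA is copied, and 30 genes of mitosis, when the copies are separated. RNA was sequenced from whole cornea of male C57BL/6 mice aged 6 weeks, in 3 libraries from Muc13 knockout animals (Muc13-/-, KO 1 to 3) and 3 from wild-type animals (WT 1 to 3). Muc13 encodes a transmembrane mucin of epithelial surfaces. The labels name no other allele and no treatment, and they give neither the deleted part of the gene nor whether a library came from 1 mouse or several. The p-values below therefore measure only the spread between these libraries, which may be technical. The design asks which genes differ between the genotypes, and for the cell cycle genes the levels were also read relative to Krt5 and Krt12, the keratins of corneal epithelium.

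A cell enters S phase when cyclin-dependent kinases inactivate the retinoblastoma proteins and free E2F factors, which switch on the genes for loading and firing replication origins and for making nucleotides. The genes of mitosis are switched on later by a MuvB complex that works with B-Myb (Mybl2) and then Foxm1, through promoter elements named CHR and CCAAT. In the cornea, division takes place mainly in the basal layer of the epithelium and at the limbus, where stem cells reside, while the superficial cells leave the cycle and are shed. Krt5 marks the basal layer, and Krt12 is the keratin specific to corneal epithelium. Adult retina, lens fibres and skeletal muscle are made mostly of cells that no longer divide.

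The libraries held 1.41e+07 to 1.55e+07 counts and differed in tissue content as well as genotype. Muc13 had 9, 4 and 2 counts in KO 1 to 3, against 18, 21 and 9 counts in WT 1 to 3, too few for the filter on low counts. Levels are given as CPM, the share of a library's counts after scaling by TMM (a factor per library that aligns most genes). Muc13 was at 0.597, 0.270 and 0.123 CPM in KO 1 to 3, against 1.40, 1.49 and 0.561 CPM in WT 1 to 3. KO 1 was above WT 3, so the level of Muc13 RNA did not separate the genotypes. Krt5 was at 8782, 7858 and 1223 CPM in KO 1 to 3, against 25606, 21572 and 6616 CPM in WT 1 to 3. The 13 epithelial markers summed to 32691, 31540 and 4535 CPM in KO 1 to 3, against 107390, 84046 and 25205 CPM in WT 1 to 3, with none at 0 and all 13 below 0 in log2 fold change. The 13 photoreceptor and retina markers summed to 22016 to 38433 CPM in the KO libraries, against 77.6, 283 and 24782 CPM in WT 1 to 3. Lens markers ran from 76.4 to 69791 CPM in KO, against 11.8 to 34383 CPM in WT, with 6 of 10 at 0 in WT 1 (Cryba1, Cryba2, Crybb1, Crygs, Mip and Lim2). Skeletal muscle markers summed to 91.0 to 878 CPM in KO, against 4018, 3164 and 323 CPM in WT 1 to 3, and pigment cell markers to 927 to 6503 CPM in KO, against 13.8 to 2751 CPM in WT, with Slc45a2 at 0 in WT 1. Stroma markers ran from 836 to 1961 CPM in KO, against 824 to 2021 CPM in WT. Immune markers ran from 122 to 189 CPM in KO, against 58.4 to 87.9 CPM in WT, and Cd3e was at 0 in 4 libraries. WT 3 thus held a mix nearer to the KO libraries than to WT 1 and WT 2, and KO 3 had the least epithelial RNA. In whole tissue, fewer cells of a type and less RNA per cell cannot be told apart.

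All 50 cell cycle genes had a log2 fold change (KO over WT) below 0, while 48.5% of the 14983 genes tested did. Their median was −1.53, against 0.02 over all genes, and it was −1.06 for the S phase genes and −1.77 for the mitotic genes. With edgeR's quasi-likelihood test and Benjamini-Hochberg adjustment, 0 of 50 passed an adjusted p of 0.05 (percent called among all genes, 0%), with adjusted p between 0.501 and 0.524. Before adjustment, 22 members had p under 0.05 and were lower in KO (3 of S phase and 19 mitotic), against 3.66% of all genes, and 0 were higher, against 0.721% of all genes. DESeq2's Wald test also called 0 members and placed 35 under an unadjusted p of 0.05, along with 10.2% of all genes in either direction. With limma-voom 0 members were called and 3 were under that p, along with 9.80% of all genes.

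**Figure D1:**
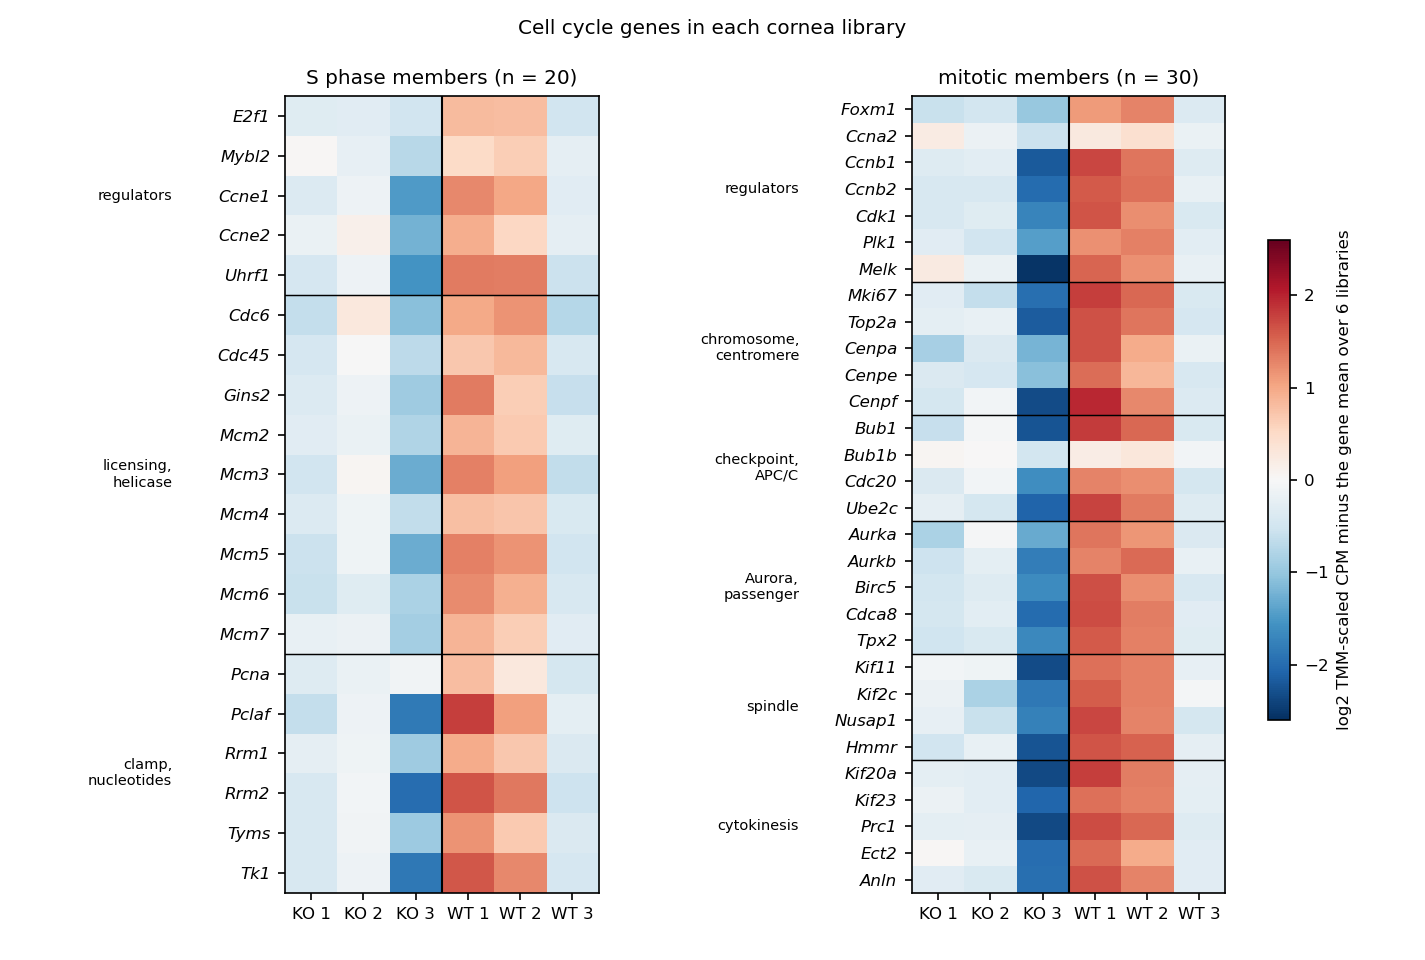
Each row is a gene and each column a library (KO left of the black line, WT right); colour gives log2 TMM-scaled CPM minus the gene's mean over the 6 libraries, and horizontal lines part the role groups. WT 1 and WT 2 are the highest libraries in all 50 rows and KO 3 the lowest in 49, while KO 1, KO 2 and WT 3 lie close together in most rows.

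The 3 WT libraries did not form a tight group. WT 1 and WT 2 were the 2 highest libraries for all 50 members, an order seen in 34.2% of the genes tested. Relative to WT 3, WT 1 was 1.21-fold (Bub1b) to 4.91-fold (Cenpf) and WT 2 was 1.30-fold (Bub1b) to 3.77-fold (Cdc6). KO 3 was lowest for 49 members, against 27.2% of all genes, and the exception was Pcna, which was lowest in WT 3. The members below every WT library numbered 21 in KO 1, 14 in KO 2 and 49 in KO 3, and the share of all genes was 24.4%, 15.5% and 32.1%. Without WT 1 and WT 2, 42 members stayed below 0 (46.3% of all genes), with a median of −0.05 over the S phase genes and −0.34 over the mitotic genes. That setting was chosen after seeing the data, and its lone WT library is assumed to vary as the KO libraries do.

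Summed over the 20 S phase genes, the level was 331, 387 and 253 CPM in KO 1 to 3, against 898, 729 and 318 CPM in WT 1 to 3. KO 1, KO 2 and WT 3 lay close together, so the groups overlap. Individual fold changes ran from −1.80 for Pclaf to −0.49 for Pcna. None of the 20 had groups that did not overlap, and the 3 with an unadjusted p under 0.05 were Mcm6, Mcm5 and Pclaf.

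Among the 5 regulators in the S phase list, with a median log2 fold change of −0.85, E2f1 encodes the transcription factor that activates replication genes. E2f1 was at 3.51, 3.58 and 3.08 CPM in KO 1 to 3, against 7.70, 7.60 and 3.12 CPM in WT 1 to 3, so WT 1 and WT 2 stood above the other 4 libraries, which were close together. Its log2 fold change was −0.85 (SE 0.455), and 0.12 without WT 1 and WT 2. Uhrf1, which guides maintenance DNA methylation to newly copied DNA, was at 13.4, 16.5 and 6.16 CPM in KO 1 to 3, against 46.0, 45.2 and 12.2 CPM in WT 1 to 3. KO 1 and KO 2 lay above WT 3, and the log2 fold change was −1.52 (SE 0.625). Mybl2 (B-Myb), at −0.61, and the cyclins that drive the start of replication, Ccne1 at −1.33 and Ccne2 at −0.81, completed the group.

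The 9 licensing and helicase genes had a median of −1.05, from −1.43 for Mcm5 to −0.81 for Mcm4. Mcm2 to Mcm7 encode the subunits of the ring-shaped replicative helicase, which Cdc6 helps load and which Cdc45 and the GINS subunit Gins2 activate. Mcm2 was at 21.5, 23.4 and 15.3 CPM in KO 1 to 3, against 48.8, 42.0 and 21.1 CPM in WT 1 to 3. Mcm6 was at 25.5, 30.6 and 21.6 CPM in KO 1 to 3, against 89.5, 72.1 and 28.6 CPM in WT 1 to 3. Mcm7 was at 27.9, 29.0 and 17.4 CPM in KO 1 to 3, against 59.6, 49.9 and 26.1 CPM in WT 1 to 3. In all 3, WT 1 and WT 2 were apart from a cluster of KO 1, KO 2 and WT 3, and KO 3 was the lowest library. Mcm6 averaged 25.9 ± 4.50 CPM in KO and 63.4 ± 31.3 CPM in WT (SD, 3 libraries each), with a log2 fold change of −1.29 (SE 0.441), the smallest p of the S phase genes, and it stood at −0.14 without WT 1 and WT 2. Mcm2 and Mcm7 had log2 fold changes of −0.89 (SE 0.364) and −0.87 (SE 0.376). The remaining members of the group were Mcm3 at −1.27, Cdc6 at −1.05, Cdc45 at −0.81 and Gins2 at −1.10.

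The 6 clamp and nucleotide genes had a median of −1.37 and the widest spread of fold changes among the S phase groups. Pcna (ENSMUSG00000027342, GRCm38 chr2:132249162-132253314, minus strand), the sliding clamp that holds DNA polymerases on the template, was at 75.9, 85.0 and 90.9 CPM in KO 1 to 3, against 168, 116 and 69.9 CPM in WT 1 to 3. Its level in KO 3 exceeded that in KO 1, KO 2 and WT 3, which no other member showed. The log2 fold change of Pcna was −0.49 (SE 0.337), and without WT 1 and WT 2 it was 0.27. Pclaf, a small PCNA-binding protein, was at 6.63, 9.25 and 2.84 CPM in KO 1 to 3, against 35.4, 21.2 and 8.54 CPM in WT 1 to 3. KO 2 lay above WT 3 and KO 3 was lowest, and the log2 fold change was −1.80 (SE 0.671). The ribonucleotide reductase subunits Rrm1 (constitutive) and Rrm2 (S phase-specific) were at −0.91 and −1.72. Thymidylate synthase, Tyms, was at −1.07, and the salvage enzyme thymidine kinase, Tk1, was at −1.68. On the deposited TPM scale, which corrects for length, Pcna was the most abundant member, with a mean of 104 TPM over the 6 libraries, followed by the mitotic Ube2c at 35.9 and by Rrm1 at 31.4 TPM, and the centromere motor Cenpe was lowest, at 1.83 TPM.

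Promoter sequence played no part in choosing the genes. RefSeq promoters (GRCm38.p6, 250 bases before to 50 after the start) were matched by symbol for 42 members, with 46 promoters since some genes have more than 1, and not for Aurkb, Ccna2, Ccne2, Foxm1, Gins2, Kif20a, Mcm4 and Tpx2. Both strands were searched for E2F letters (TTTGGCGC, TTTCCCGC, TTTCGCGC and TTTGCCGC), CHR letters (TTTGAA and TTCGAA) and CCAAT. E2F letters were in 7 of 19 S phase promoters (36.8%), in 1 of 27 mitotic promoters (3.70%, that of Cdk1) and in 2.26% of 32851 RefSeq promoters. The 7 belong to Mcm7, Mcm3, Mcm5, Mcm6, Pclaf, Uhrf1 and Cdc6. Matches of different motifs overlap in 2 member promoters, those of Mcm7 and Cdca8. The 3 printed are S phase promoters with the most matches, all of helicase subunits: Mcm7 at chr5:138171834-138172133 (minus strand), Mcm5 at chr8:75109259-75109558 (plus strand) and Mcm6 at chr1:128359656-128359955 (minus strand), while Mcm3 tied with Mcm5 and Mcm6 and had a lower mean TPM. Capitals mark matches to any of the 3 motifs, on either strand, and adjoining matches run together.
Mcm7: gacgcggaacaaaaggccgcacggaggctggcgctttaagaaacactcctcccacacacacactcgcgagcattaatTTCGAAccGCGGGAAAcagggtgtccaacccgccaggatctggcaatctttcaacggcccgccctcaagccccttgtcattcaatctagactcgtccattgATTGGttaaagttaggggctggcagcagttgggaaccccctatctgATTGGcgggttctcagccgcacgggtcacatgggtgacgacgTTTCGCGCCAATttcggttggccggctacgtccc
Mcm5: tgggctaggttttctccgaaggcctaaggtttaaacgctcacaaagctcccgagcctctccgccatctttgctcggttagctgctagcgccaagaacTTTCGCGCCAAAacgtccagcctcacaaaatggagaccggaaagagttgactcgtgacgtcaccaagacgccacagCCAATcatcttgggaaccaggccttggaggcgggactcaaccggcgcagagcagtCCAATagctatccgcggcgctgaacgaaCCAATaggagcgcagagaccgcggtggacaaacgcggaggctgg
Mcm6: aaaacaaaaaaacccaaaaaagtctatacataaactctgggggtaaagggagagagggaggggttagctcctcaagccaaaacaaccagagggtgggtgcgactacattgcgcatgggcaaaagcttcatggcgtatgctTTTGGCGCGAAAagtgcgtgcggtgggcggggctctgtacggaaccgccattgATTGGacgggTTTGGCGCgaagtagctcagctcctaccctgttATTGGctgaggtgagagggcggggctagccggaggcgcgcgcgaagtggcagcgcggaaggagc

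The Mcm7 promoter holds 2 E2F matches, 1 CHR match and 3 CCAAT matches. The Mcm5 promoter holds 2 E2F and 3 CCAAT matches, and the Mcm6 promoter 3 E2F and 2 CCAAT matches. A match describes these letters and is not evidence of binding. The genes with these promoters were among those with WT 1 and WT 2 on top, as were members without an E2F match.

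Summed over the 30 mitotic genes, the level was 360, 346 and 142 CPM in KO 1 to 3, against 1166, 975 and 343 CPM in WT 1 to 3. KO 1, KO 2 and WT 3 were again close to each other, and KO 3 was lowest. The fold changes ran from −2.03 for Mki67 to −0.27 for Bub1b. The 8 members whose KO libraries were all below the WT libraries were mitotic: Foxm1, Ccnb2, Plk1, Cenpa, Aurkb, Tpx2, Kif2c and Kif20a. Such separation was seen in 5.51% of all genes in this direction and in 4.71% in the other.

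The 7 mitotic regulators had a median log2 fold change of −1.56. Foxm1, the transcription factor of the late wave of cell cycle genes, was at 8.22, 8.85 and 6.23 CPM in KO 1 to 3, against 26.6, 30.0 and 9.66 CPM in WT 1 to 3. KO 2, the highest KO library, was just under WT 3, and the log2 fold change was −1.51 (SE 0.469). Cdk1, the kinase that starts mitosis, was at 9.48, 10.3 and 3.88 CPM in KO 1 to 3, against 39.2, 29.6 and 9.60 CPM in WT 1 to 3, and its partner cyclin B1, Ccnb1, was at 9.75, 10.1 and 2.71 CPM in KO 1 to 3, against 40.7, 31.9 and 9.66 CPM in WT 1 to 3. For both genes KO 2 was above WT 3 and KO 3 was well below all other libraries. Their log2 fold changes were −1.73 (SE 0.637) for Cdk1 and −1.86 (SE 0.727) for Ccnb1. Cyclin A2, Ccna2, which acts in S phase and on into early mitosis, was at 47.1, 36.7 and 27.7 CPM in KO 1 to 3, against 48.5, 54.6 and 36.2 CPM in WT 1 to 3. It varied far less than its partners, KO 1 was above WT 3, and its log2 fold change was −0.32 (SE 0.264). The log2 fold change of Ccna2 was 0.037 without WT 1 and WT 2, and 0.0913 with Krt5 as a covariate. Ccnb2, the second B-type cyclin, was at −1.92, the mitotic kinase Plk1 at −1.56 and the kinase Melk at −1.43.

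The 5 genes of mitotic chromosomes and centromeres had a median of −1.77. Mki67 (ENSMUSG00000031004, GRCm38 chr7:135689784-135716361, minus strand), which coats mitotic chromosomes and is the usual marker of cycling cells, was at 33.3, 26.8 and 10.5 CPM in KO 1 to 3, against 143, 116 and 31.0 CPM in WT 1 to 3. KO 1 was above WT 3, so the groups overlap. The means were 23.5 ± 11.7 CPM in KO and 96.4 ± 58.2 CPM in WT (SD, 3 libraries each), and the log2 fold change was −2.03 (SE 0.697), which stood at −0.40 without WT 1 and WT 2. Top2a, the topoisomerase that untangles sister chromatids, was at 23.5, 24.5 and 6.23 CPM in KO 1 to 3, against 87.7, 73.1 and 20.7 CPM in WT 1 to 3. KO 1 and KO 2 exceeded WT 3, and the log2 fold change was −1.74 (SE 0.735). Cenpa (ENSMUSG00000029177, GRCm38 chr5:30666777-30674830, plus strand), the histone that marks centromeres, was at 3.45, 4.80 and 2.71 CPM in KO 1 to 3, against 19.6, 12.3 and 5.55 CPM in WT 1 to 3, with every KO library under every WT library. Its log2 fold change of −1.77 (SE 0.545) had the smallest p of the 50 members. The centromere motor Cenpe was at −1.41 and the kinetochore protein Cenpf at −1.91.

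Among the 4 checkpoint and anaphase-promoting complex genes, Ube2c and Bub1b had unlike values. Ube2c, the ubiquitin-conjugating enzyme of that complex, was at 12.4, 10.7 and 3.45 CPM in KO 1 to 3, against 48.9, 36.9 and 11.5 CPM in WT 1 to 3, with KO 1 between WT 3 and WT 2 and a log2 fold change of −1.88 (SE 0.706). Bub1b, a checkpoint protein that restrains the complex until chromosomes are attached, was at 25.0, 24.4 and 17.4 CPM in KO 1 to 3, against 27.8, 29.8 and 22.9 CPM in WT 1 to 3. All 6 libraries of Bub1b lay within a narrow range, and its log2 fold change was −0.27 (SE 0.219). Its partner kinase Bub1 was at −1.94 and the complex's activator Cdc20 at −1.42. Bub1b and Ccna2 were therefore the 2 mitotic members with log2 fold changes nearest to 0.

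The 5 Aurora and chromosomal passenger genes had a median of −1.77 and were alike. They ran from −1.87 for the passenger subunit Cdca8 (borealin) to −1.52 for the spindle-pole kinase Aurka. All 5 had an unadjusted p under 0.05, and 3.66% of all genes were lower in KO at that p. Tpx2, the spindle protein that activates Aurka, was at 8.02, 8.65 and 3.58 CPM in KO 1 to 3, against 34.5, 28.4 and 9.16 CPM in WT 1 to 3. Every KO library was under WT 3, and the log2 fold change was −1.83 (SE 0.607). Birc5 (survivin), the passenger subunit that targets the complex to centromeres, was at 7.23, 7.97 and 3.27 CPM in KO 1 to 3, against 32.2, 23.4 and 7.54 CPM in WT 1 to 3, with KO 2 above WT 3 and a log2 fold change of −1.77 (SE 0.635). Aurkb, the kinase of the complex, was at −1.75. Birc5, Cenpf, Hmmr and Tyms were the 4 members with fractional counts, which can mark reads shared with other genes.

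The 4 spindle genes had a median of −1.85. Kif2c, a kinesin that depolymerises microtubules at centromeres, was at 5.83, 3.65 and 1.79 CPM in KO 1 to 3, against 19.2, 16.1 and 6.30 CPM in WT 1 to 3, with no overlap and a log2 fold change of −1.88 (SE 0.625). Nusap1, which bundles spindle microtubules, was at 9.35, 7.23 and 3.21 CPM in KO 1 to 3, against 35.9, 26.4 and 7.92 CPM in WT 1 to 3. KO 1 was above WT 3, and the log2 fold change was −1.83 (SE 0.676). The bipolar spindle motor Kif11 was at −1.54 and the microtubule-binding Hmmr at −1.93. The 5 cytokinesis genes had a median of −1.81. Prc1, which cross-links the central spindle, was at 15.2, 15.5 and 3.58 CPM in KO 1 to 3, against 58.7, 51.2 and 14.4 CPM in WT 1 to 3. Anln (anillin), the scaffold of the contractile ring, was at 16.1, 15.0 and 5.05 CPM in KO 1 to 3, against 62.1, 48.5 and 16.0 CPM in WT 1 to 3. For Prc1, KO 1 and KO 2 were above WT 3, and for Anln only KO 1 was, by little. Their log2 fold changes were −1.86 (SE 0.759) for Prc1 and −1.81 (SE 0.662) for Anln. The central spindle kinesins Kif20a and Kif23 were at −1.89 and −1.62, and Ect2, which activates RhoA at the cleavage site, was at −1.36.

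CHR letters were in 22 of 27 mitotic promoters (81.5%), against 3 of 19 S phase promoters (15.8%) and 19.2% of all RefSeq promoters. CCAAT was in 22 mitotic (81.5%) and 13 S phase promoters (68.4%), against 37.4% of all. Both motifs together were in 20 mitotic promoters (74.1%) and 3 S phase promoters (15.8%), against 7.52% of all. At least 2 CCAAT matches were in 55.6% of mitotic and 47.4% of S phase promoters, against 11.7% of all. The 3 mitotic promoters with the most matches were those of Top2a at chr11:99024140-99024439 (minus strand), Ube2c at chr2:164769679-164769978 (plus strand) and Cdk1 at chr10:69352863-69353162 (minus strand), with capitals used as above. Hmmr tied with Cdk1 and had a lower mean TPM.
Top2a: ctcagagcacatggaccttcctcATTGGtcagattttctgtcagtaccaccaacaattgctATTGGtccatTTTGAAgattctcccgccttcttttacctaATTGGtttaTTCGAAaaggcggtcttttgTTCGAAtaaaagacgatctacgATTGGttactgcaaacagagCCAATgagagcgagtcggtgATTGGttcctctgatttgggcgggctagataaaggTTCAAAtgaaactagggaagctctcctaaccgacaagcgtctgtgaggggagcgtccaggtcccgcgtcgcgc
Ube2c: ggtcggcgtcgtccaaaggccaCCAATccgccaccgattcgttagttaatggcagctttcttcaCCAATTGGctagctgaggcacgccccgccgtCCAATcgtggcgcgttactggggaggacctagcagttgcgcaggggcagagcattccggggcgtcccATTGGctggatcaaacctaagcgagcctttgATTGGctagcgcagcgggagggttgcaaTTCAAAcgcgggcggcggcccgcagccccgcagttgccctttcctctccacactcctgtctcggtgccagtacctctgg
Cdk1: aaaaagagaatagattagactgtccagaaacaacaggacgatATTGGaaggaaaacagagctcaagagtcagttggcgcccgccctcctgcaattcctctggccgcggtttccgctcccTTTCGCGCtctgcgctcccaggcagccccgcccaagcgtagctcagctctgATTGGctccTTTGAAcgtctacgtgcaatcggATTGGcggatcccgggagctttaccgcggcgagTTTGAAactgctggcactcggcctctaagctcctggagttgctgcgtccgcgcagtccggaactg

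The Top2a promoter holds 4 CHR and 6 CCAAT matches, and the Ube2c promoter 1 CHR and 6 CCAAT matches. The Cdk1 promoter holds 1 E2F, 2 CHR and 3 CCAAT matches. No value here measures binding at any of them.

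Leaving out single libraries moved the test results more than the direction. The 22 members under an unadjusted p of 0.05 became 0 without KO 3, 0 without WT 1, 1 without WT 2, 5 without KO 1 and 5 without KO 2. Over the 14983 genes the count fell as well, to 165 without KO 3, 149 without WT 1, 149 without WT 2, 273 without KO 1 and 250 without KO 2, against 656 with all 6 libraries. Without WT 3, 42 members passed the adjusted threshold of edgeR's test, all lower in KO (17 of S phase and 25 mitotic), as did 34.1% of all genes (1961 lower and 3205 higher). The median of the S phase genes was −0.69 without WT 1, and it was −1.42 without WT 3. For the mitotic genes these medians were −1.38 and −2.16.

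The median cell cycle gene and the epithelial keratins were both highest in WT 1 and WT 2 and lowest in KO 3, with unlike fold differences. Relative to WT 3, Krt5 was 1.33-fold, 1.19-fold and 0.185-fold in KO 1 to 3, and 3.87-fold and 3.26-fold in WT 1 and WT 2. The median mitotic gene was 0.997-fold, 1.01-fold and 0.312-fold in KO 1 to 3, and 3.65-fold and 3.07-fold in WT 1 and WT 2. The median S phase gene was 1.06-fold, 1.22-fold and 0.680-fold in KO 1 to 3, and 2.91-fold and 2.43-fold in WT 1 and WT 2. Krt5 itself had a log2 fold change of −1.59 (SE 0.977) and Krt12 of −1.70 (SE 1.07), and neither passed the test. The retina, lens, muscle, pigment and immune marker sums also differed between libraries, and their part in the cell cycle fold changes was not tested. For epithelial content, the ratios to keratin follow, and a fit with log2 Krt5 CPM as a covariate was also made. In that fit the median log2 fold change was −0.26 over the S phase genes and −0.50 over the mitotic genes, against 0.00892 over all genes. With the covariate, 47 of the 50 members stayed below 0, against 48.9% of all genes. In the same fit 0 members had an unadjusted p under 0.05, against 0.727% of all genes.

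**Figure D2:**
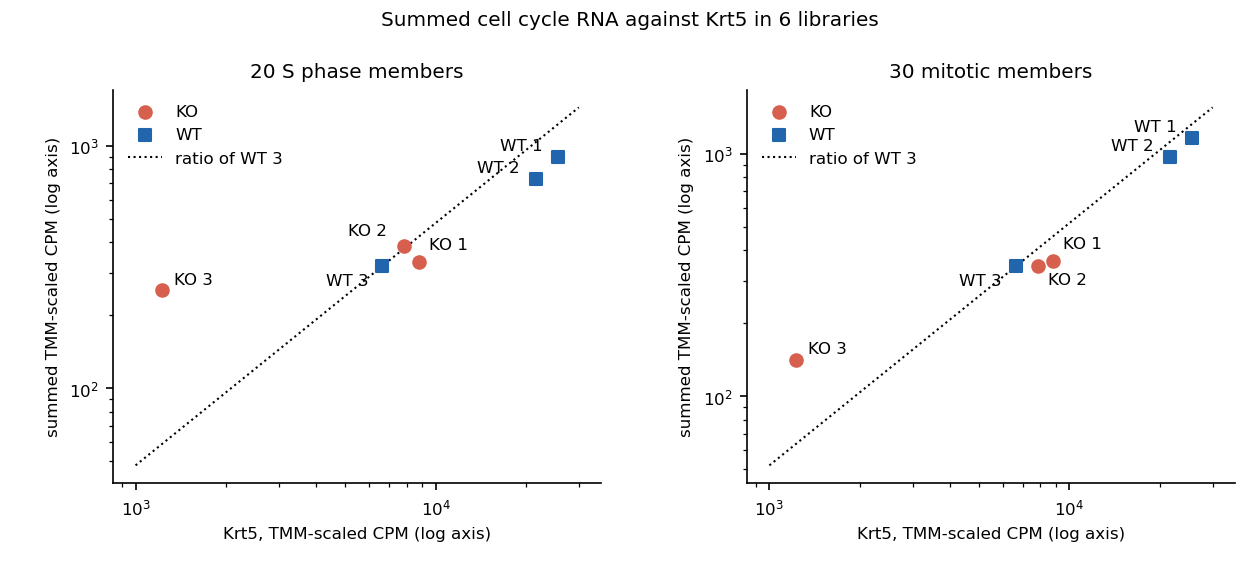
Summed TMM-scaled CPM of the 20 S phase genes (left) and the 30 mitotic genes (right) against Krt5 CPM, both on log axes, with 1 point per library (circles KO, squares WT). The dotted line has the ratio of WT 3. The mitotic sum lies near the line in all libraries but KO 3, and KO 3 lies above it in both panels.

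Dividing by Krt5 brought the WT libraries together. The ratio of the highest to the lowest WT library had a median of 3.65 for mitotic CPM and 1.18 for mitotic counts per Krt5 count. For the S phase genes it was 2.91 as CPM and 1.48 per Krt5. Over 14327 tested genes above 0 in all libraries the ratio went the other way, 1.89 as CPM and 3.90 per Krt5. Over the 5 libraries other than KO 3, these medians were 4.17 and 1.52 for the mitotic genes, 3.01 and 1.62 for the S phase genes, and 2.09 and 4.09 for all genes. Per Krt12, the WT ratio was 1.23 for the mitotic genes, 1.51 for the S phase genes and 4.17 for all genes.

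With the Krt5 count as the scale of each library, the median log2 fold change was 1.16 over the S phase genes and 0.18 over the mitotic genes, against 2.18 over all genes. Of the 50 members 45 were above 0, and the 5 below 0 (1.05% of all genes) were Kif20a, Cenpf, Bub1, Hmmr and Prc1. No member had KO and WT libraries that did not overlap, against 0.0934% of all genes with KO below and 3.48% with KO above. By edgeR's test 0 members passed, the smallest adjusted p being 0.252 (percent called among all genes, 0%). No member had an unadjusted p under 0.05, against 0.0200% of all genes lower and 10.0% higher. Per Krt12 the medians were 1.51, 0.46 and 2.56 in the same order, and again 0 members passed edgeR's test (0% of all genes), with 0 under an unadjusted p of 0.05, against 0.0133% of all genes lower and 11.0% higher. All 50 members were above 0 per Krt12 (0.527% of all genes were below), and in none did the groups fail to overlap, against 0.0267% of all genes with KO below and 4.43% with KO above. These medians rest on KO 3. Without it, the per Krt5 medians were 0.19 over the S phase genes, −0.33 over the mitotic genes and 0.59 over all genes, and the per Krt12 medians were 0.25 over the S phase genes, −0.27 over the mitotic genes and 0.65 over all genes. The mean log2 level of 13 epithelial markers as the scale gave −0.00635 over the mitotic genes, 0.87 over the S phase genes and 1.8 over all genes.

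**Figure D3:**
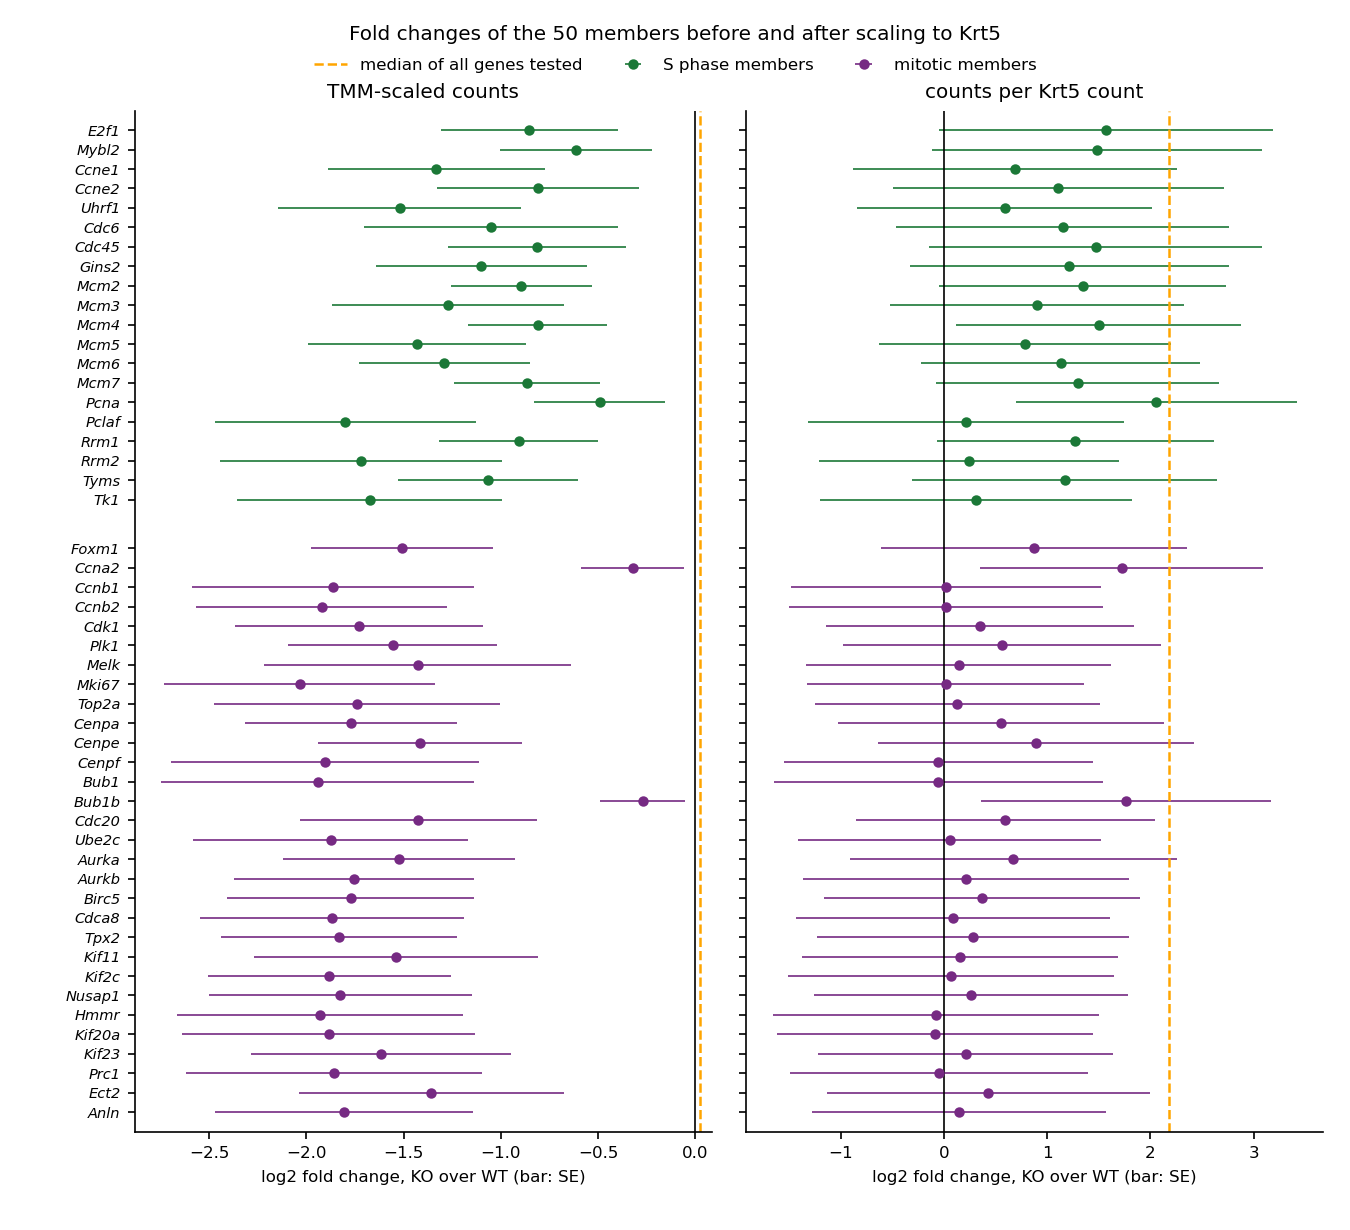
Log2 fold change (KO over WT) of every member with its SE as a bar, from TMM-scaled counts (left) and from counts per Krt5 count (right); the dashed line is the median of all genes tested, 0.02 on the left and 2.18 on the right. All 50 points lie left of 0 in the left panel, and 45 lie right of 0 in the right panel with SEs that are wide compared with their size.

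Counted per 10000 Krt5 counts, KO 3 stood above every WT library for all 20 S phase and all 30 mitotic genes, as it did for 98.1% of all genes tested. The S phase genes summed to 377, 493 and 2070 in KO 1 to 3, against 351, 338 and 480 in WT 1 to 3, and the mitotic genes to 410, 441 and 1159 in KO 1 to 3, against 455, 452 and 519 in WT 1 to 3. For the mitotic sum, KO 1 and KO 2 were under all WT libraries. Mki67 was at 37.9, 34.0 and 86.2 in KO 1 to 3, against 55.7, 53.6 and 46.8 in WT 1 to 3 on this scale. KO 1 and KO 2 were below all WT libraries and KO 3 above them, and the log2 fold change per Krt5 was 0.02 (SE 1.34). Anln was at 18.3, 19.1 and 41.3 in KO 1 to 3, against 24.2, 22.5 and 24.2 in WT 1 to 3, again with KO 1 and KO 2 lowest. Pcna was at 86.4, 108 and 743 in KO 1 to 3, against 65.7, 53.8 and 106 in WT 1 to 3, with KO 1 inside the WT range and KO 2 just above it. Its log2 fold change per Krt5 was 2.06 (SE 1.36). Mcm6 was at 29.1, 38.9 and 177 in KO 1 to 3, against 34.9, 33.4 and 43.2 in WT 1 to 3, with KO 2 inside the WT range and KO 1 below it.

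KO 1 and KO 2 were both below every WT library per Krt5 for 16 of 30 mitotic genes (53.3%) and for 0 of 20 S phase genes, against 1.03% of all genes. Per Krt12 this held for 12 of 30 mitotic genes (40.0%) and 0 S phase genes, against 0.774% of all genes. Counted singly, KO 1 was below every WT library per Krt5 for 9 S phase genes (45.0%) and 23 mitotic genes (76.7%), against 4.38% of all genes. KO 2, counted in the same way, was below them for 0 S phase and 16 mitotic genes (53.3%), against 1.53% of all genes. These shares of all genes are not a like comparison, since most genes do not follow Krt5. The highest WT library per Krt5 was a median 3.9-fold of the lowest over all genes. That ratio was 1.18 over the mitotic and 1.48 over the S phase genes. No such share is given for epithelial genes alone. When KO 1 and KO 2 were set against WT 3 only, a comparison chosen after seeing the data, the per Krt5 medians were −0.14 over the S phase genes, −0.31 over the mitotic genes and −0.31 over all genes. In TMM-scaled counts the same libraries gave 0.18 over the S phase genes and 0.00144 over the mitotic genes.

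The level of the mitotic genes relative to the S phase genes of the same library was read without a keratin. The mean log2 CPM of the mitotic genes minus that of the S phase genes was −0.21, −0.46 and −0.98 in KO 1 to 3, against 0.11, 0.09 and −0.13 in WT 1 to 3. By this difference every KO library was under every WT library, KO 1 and WT 3 being closest. No p is given for a score over chosen genes. The same contrast by medians was −0.28, −0.62 and −0.75 in KO 1 to 3, against −0.23, −0.19 and −0.16 in WT 1 to 3. As a ratio of summed CPM it was 1.09, 0.894 and 0.560 in KO 1 to 3, against 1.30, 1.34 and 1.08 in WT 1 to 3, where KO 1 passed WT 3. Pcna, the most abundant member, weighs on that sum, and without it the ratios were 1.41, 1.15 and 0.873 in KO 1 to 3, against 1.60, 1.59 and 1.38 in WT 1 to 3, and KO 1 still passed WT 3. KO 3 had the lowest value by each of these measures and also the least Krt5, and the part of tissue content in this contrast was not tested.

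**Figure D4:**
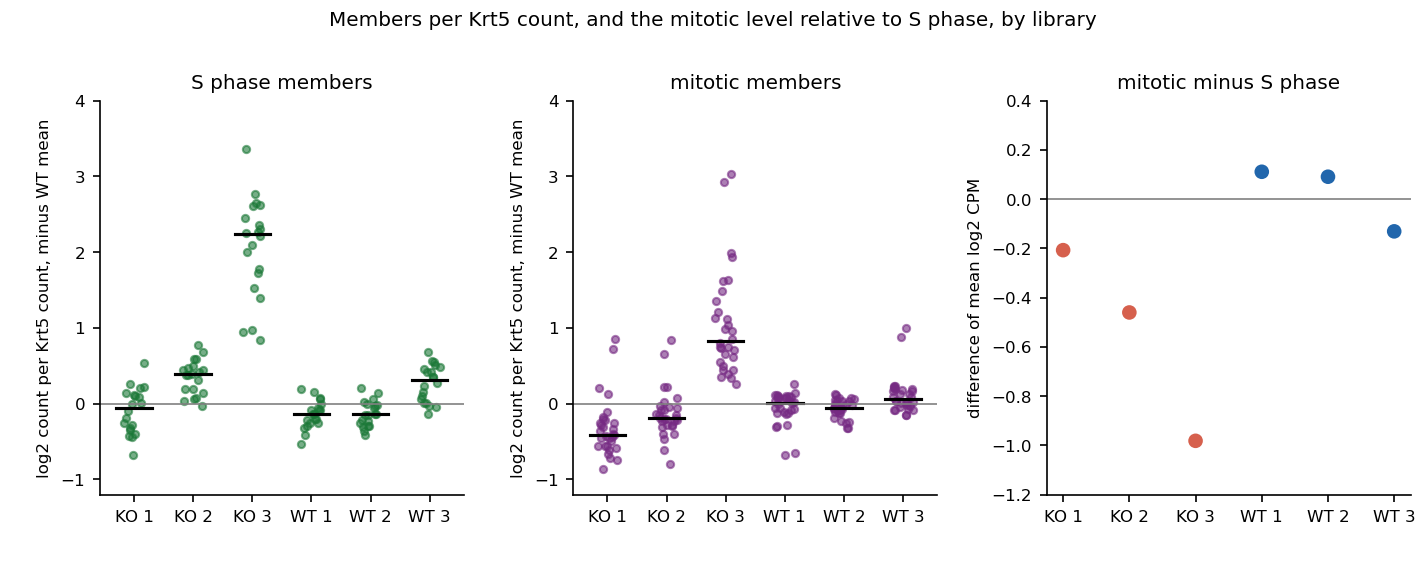
Left and middle, log2 count per Krt5 count of each S phase or mitotic gene minus its WT mean (points) with the median (bars), by library; right, mean log2 CPM of the mitotic genes minus that of the S phase genes, 1 point per library (red KO, blue WT). KO 3 is above all other libraries in the first 2 panels, most mitotic genes of KO 1 and KO 2 are under 0, and the right panel runs from −0.98 in KO 3 to 0.11 in WT 1.

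Other genes of the same phases, from lists that do not include the 50, followed with smaller or like values. These lists, like the 50, were chosen with earlier results of these data known. They were read in the same libraries, so they are not independent support. Of 30 further S phase genes, 29 had a log2 fold change below 0, with a median of −0.68. The lowest p belonged to Dscc1, a clamp-loader subunit, at 0.928, 0.811 and 0.308 CPM in KO 1 to 3, against 4.20, 2.63 and 1.06 CPM in WT 1 to 3 and a log2 fold change of −1.93 (SE 0.713). The chromatin assembly factor subunit Chaf1b was at −1.29 (SE 0.581), and at 0.23 without WT 1 and WT 2. Of 55 further mitotic genes, 51 were below 0, with a median of −1.46. Of these 55, 19 had an unadjusted p under 0.05, all lower, and 13 had all KO libraries below all WT libraries. Among all genes tested, 48.5% were below 0, 3.66% were lower at that p and 5.51% had such separation. The mitotic kinase Pbk was at −1.92 (SE 0.622), the phosphatase Cdc25c, which activates Cdk1, at −1.94 (SE 0.638), and the kinetochore gene Spc24, whose counts were fractional, at −1.74 (SE 0.583). None of the genes in either list passed edgeR's adjusted test.

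Genes that set the pace of the cycle lay closer to 0. The 8 genes of G1 cyclins and their kinases had a median of −0.47, with 6 below 0. Cdk6 was at −1.05 (SE 0.364) and Cdk4 at −0.72 (SE 0.307), both kinases that phosphorylate the retinoblastoma protein, and Cdk7, the kinase that activates other cyclin-dependent kinases, was at −0.57 (SE 0.211). Of 17 cell cycle inhibitors, 16 were tested (Cdkn2a was not), 12 were below 0 and the median was −0.35. Btg2, an antiproliferative gene that is also an early response gene, was the one with the smallest p and was higher in KO, at 111, 154 and 353 CPM in KO 1 to 3, against 48.8, 49.7 and 96.4 CPM in WT 1 to 3. Its KO libraries were all above the WT libraries, though KO 1 exceeded WT 3 by little. Such separation with KO above held for 2 of the 16 inhibitors tested and for 4.71% of all genes. The log2 fold change of Btg2 was 1.66 (SE 0.544), or 1.03 without KO 3 and 1.11 without WT 1 and WT 2. Fbxo5 (Emi1), an inhibitor of the anaphase-promoting complex, was at 3.85, 3.65 and 3.64 CPM in KO 1 to 3, against 10.6, 9.02 and 4.92 CPM in WT 1 to 3, with the KO libraries close together below WT 3 and a log2 fold change of −1.14 (SE 0.39). Cdkn3, a phosphatase that acts on cyclin-dependent kinases, was at −2.16 (SE 0.753). The 17 retinoblastoma, E2F and MuvB genes had a median of −0.23, with the pocket protein Rbl1 (p107) at −1.48 (SE 0.56), the MuvB subunit Lin52 at 0.69 (SE 0.299) and the factor E2f5 at 0.59 (SE 0.316). None passed edgeR's adjusted test.

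Without WT 1 and WT 2, the medians of these other lists were 0.05 for the further S phase genes, −0.23 for the further mitotic genes, 0.01 for the G1 cyclins and kinases, 0.07 for the inhibitors and 0.02 for the retinoblastoma, E2F and MuvB genes. In that setting 46 of the 55 further mitotic genes were below 0, as were 29 of the 30 mitotic members, whose median was −0.34, and 46.3% of all genes.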

How the data were processed

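Corneal RNA of 6 libraries was grouped by the genotype in the labels. Per the labels' protocols, an mRNA library kit was used. Aligner, counter and strand setting: not given in the sources used here; antisense partners could therefore add reads. The submitters' processing notes name GRCm38 (mm10). The authors deposited 1 table with 4 kinds of value per library. Expected counts (estimated reads per gene) were deposited without normalization. The deposited signal is those counts divided by 1 size factor per library. The deposited TPM and FPKM values are corrected for gene length by the authors. Expected counts, rounded to whole numbers, were used for tests, and TPM for levels across genes. The deposited signal, FPKM and average columns were not used for results.

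Tests used R 4.3.3, edgeR 4.0.16 (quasi-likelihood, TMM, filterByExpr, robust dispersion, genotype as the only term), limma 3.58.1 and DESeq2 1.42.0, on all 14983 genes that passed the filter, with Benjamini-Hochberg adjusted p under 0.05. Each SE is the log2 fold change over the root of the F statistic. For values per keratin, the log count of Krt5 or Krt12 replaced the TMM offset. The edgeR fits were tested on simulated data in which Krt5 had no spread beyond library size. That test does not cover the spread of Krt5 seen here. Gene coordinates come from a GENCODE annotation of the same build, GRCm38. Counts of members ran from 13 to 2163, and 3 counts is the limit that a count of 0 allows. Mean chi-square per gene between libraries was 37.2 to 471, so no library repeats another. The lowest value was between KO 2 and WT 3, a pair across the genotypes, and WT 1 and WT 2 stood at 44.2.

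The members and all gene lists were chosen with earlier results of these data known. Members given in full are, in each role group, the one with the highest mean TPM and the one with the smallest p, plus Mki67, Top2a, Cenpa, Foxm1, E2f1, Pcna, Mcm2, Cdk1 and Ccnb1; of other lists, up to 3 with the smallest p. One gene that this rule takes is not reported here. Alternatives were DESeq2 size factors, library size alone, other filters, DESeq2's Wald test, limma-voom with and without quality weights, the replicate number as a block, Krt5 as a covariate, an epithelial list as scale, TPM, and each library left out. Reducing the WT group to WT 3, with all KO libraries or with KO 1 and KO 2, was chosen after seeing the data.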

Additional observations from a re-analysis of the deposited data

How the results depend on the processing

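The 0 members called became 48 with limma-voom and sample quality weights (54.2% of all genes were called) and ran from 0 to 42 when 1 library was left out, 42 being without WT 3; in the other settings it stayed at 0. With library size alone the median of all genes was 0.19. The S phase median was −1.42 to −0.69 with 1 library left out, −0.26 with Krt5 as a covariate, −0.0501 without WT 1 and WT 2, and 0.18 for KO 1 and KO 2 against WT 3. The mitotic median was −2.16 to −1.38 with 1 library left out, −0.50 with Krt5 as a covariate, −0.34 without WT 1 and WT 2, and 0.00144 for KO 1 and KO 2 against WT 3. Per Krt5, the S phase median ran from 0.19 to 1.55 with 1 library left out and was −0.14 for KO 1 and KO 2 against WT 3, and the mitotic median ran from −0.33 to 0.37. Per Krt12, the S phase median ran from 0.25 to 1.94 and the mitotic median from −0.27 to 0.72 with 1 library left out. Single genes that changed sign were E2f1 (0.12), Pcna (0.27), Ccna2 (0.037) and Chaf1b (0.23) without WT 1 and WT 2, and Ccna2 (0.0913) with Krt5 as a covariate. The cause was not tested. The replicate numbers were not taken to pair the libraries, since deviations of same-numbered libraries correlated at 0.0904, 0.363 and 0.189, not all over 0.1. Each KO library correlated best with the WT library of its own number, a hint from the data and not from the design, while WT 1 correlated best with KO 2 (0.18). With the replicate number as a block, 0 members were called, and the medians were −0.94 for S phase and −1.72 for mitotic genes. By edgeR's test with that block, 41 members had an unadjusted p under 0.05 (13 of S phase and 28 mitotic). The share of all genes under that p was 16.9%, in either direction. With that block and the keratin scales, 3 members were called, all higher, along with 76.4% of all genes per Krt5 and 76.3% per Krt12. DESeq2's Wald test called 69 genes (60 lower, 9 higher), none of them a member. Of the settings for single genes, 501 kept direction and side of the threshold, 70 newly passed it and 5 changed sign.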
